A study of Mus musculus with 312 samples.

Results

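The 9 genes described here encode proteases that cut the extracellular matrix and the tissue inhibitors that hold some of them in check. They were listed by symbol and are Mmp2, Mmp3, Mmp14, Adamts1, Adamts5 and Plat (proteases) and Timp1, Timp2 and Timp3 (inhibitors), 9 of 25136 genes used. RNA was counted in 312 single cells from mammary glands of untreated FVB/NJ mice, 237 from adult and 75 from pregnant animals, all given as basal by their labels, which state neither the day of pregnancy nor the animal of each cell. Adult cells fall into 112 whose title carries a mark, (2), and 125 without it, referred to as marked and unmarked cells. What the mark stands for is not stated. Cells were captured on the Fluidigm C1, and the study's own list of C1 cells gives pregnancy as total epithelium, with a cell number other than that deposited here, so whether those cells include these is not known. Pregnancy titles come in 1 form, so an effect of stage and one of the capture run cannot be told apart.

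Matrix metalloproteinases need zinc and are made as inactive precursors. Mmp14 sits in the cell membrane and activates the precursor of the gelatinase Mmp2, with Timp2 acting as the bridge between both at low levels and as an inhibitor at high levels. Adamts1 and Adamts5 are secreted proteases that cut versican and related proteoglycans, and Timp3, which binds to the matrix, is the tissue inhibitor that blocks them best. Plat, tissue plasminogen activator, converts plasminogen into plasmin, which cuts matrix and activates Mmp3 (stromelysin). In the mammary gland these enzymes are known for branching of the ducts, turnover of the basement membrane and regression after weaning, with stromal cells as a major source.

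Cells were retained with at least 50000 assigned reads, that is read pairs outside mitochondrial and ribosomal protein genes and gene IDs without a symbol, and at least 1000 detected genes. This kept 81 of 112 marked, 58 of 125 unmarked and 71 of 75 pregnancy cells. Total reads ranged from 41 to 459260 in adult and from 24054 to 529822 in pregnancy cells, and retained cells had median assigned reads of 174910 (marked), 101321 (unmarked) and 230645 (pregnancy). Mitochondrial reads took a median of 9.65%, 15.6% and 18.4%. At least 6 of 11 core basal genes, among them Krt5, Krt14 and Acta2, reached 100 CPM (counts per 1e6 assigned reads) in 93.8% of marked, 87.9% of unmarked and 98.6% of pregnancy cells, so most retained cells carried the basal genes of their label. Unmarked cells 130 and 157 carried none of them, the first with 6 of 7 pan-luminal and the other with 6 of 8 fibroblast genes, and levels without such cells are given with the markers of other lineages. Since no animals are named, each group counts as 1 sample, no test was possible, and the difference between marked and unmarked cells is the only measure of variation within a stage. All intervals are exact 95% intervals of counts. They cover counting error only and leave out differences between animals. Intervals of read sums also leave out the spread among cells and copies made by PCR, since read pairs carry no molecular identifiers.

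In the genome build GRCm38, Mmp2 (Entrez 17390) lies at chr8:92827290-92853421, Mmp3 (17392) at chr9:7445822-7455975 and Mmp14 (17387) at chr14:54431598-54442456. Timp1 (21857) lies at chrX:20870166-20874737 inside Syn1, which runs on the opposite strand, and Timp2 (21858) at chr11:118301061-118355411. Timp3 (21859), at chr10:86300412-86349505, shares exon bases with Syn3 on the opposite strand. Strand use in counting is not stated, and Syn3 held 31 reads in adult and 19 in pregnancy cells, against 22748 and 10117 for Timp3. Adamts1 (11504) at chr16:85793827-85803113 and Adamts5 (23794) at chr16:85858157-85901125 are neighbours on the minus strand, and Plat (18791) lies at chr8:22757722-22782848.

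Promoters are shown for the pair of genes with the highest levels and for the protease that was almost absent, from 250 bases before to 50 bases after the annotated start, 5′ to 3′ on the strand of the gene (RefSeq, GRCm38.p6). Capitals mark a match to the AP-1 letters TGANTCA, the site of Fos and Jun proteins.
Adamts1, chr16:85803064-85803363, minus strand: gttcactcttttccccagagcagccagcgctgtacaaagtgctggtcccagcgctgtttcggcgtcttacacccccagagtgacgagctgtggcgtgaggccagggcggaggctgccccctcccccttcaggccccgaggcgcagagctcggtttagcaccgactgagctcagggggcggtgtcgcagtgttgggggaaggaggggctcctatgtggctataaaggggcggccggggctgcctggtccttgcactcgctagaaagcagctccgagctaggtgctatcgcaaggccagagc
Timp3, chr10:86300162-86300461, plus strand: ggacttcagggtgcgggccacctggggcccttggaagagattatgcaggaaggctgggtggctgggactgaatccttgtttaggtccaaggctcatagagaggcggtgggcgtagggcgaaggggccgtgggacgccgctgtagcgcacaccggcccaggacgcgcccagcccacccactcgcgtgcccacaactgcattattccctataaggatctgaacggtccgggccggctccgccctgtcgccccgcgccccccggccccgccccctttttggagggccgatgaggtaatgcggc
Mmp3, chr9:7445572-7445871, plus strand: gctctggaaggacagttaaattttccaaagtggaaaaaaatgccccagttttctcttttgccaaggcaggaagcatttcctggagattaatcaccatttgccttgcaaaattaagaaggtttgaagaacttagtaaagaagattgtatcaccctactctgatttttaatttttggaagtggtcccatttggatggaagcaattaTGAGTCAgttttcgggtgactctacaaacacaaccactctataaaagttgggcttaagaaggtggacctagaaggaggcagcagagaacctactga
RefSeq entries matched 6 of the 9 genes, namely these 3 and Mmp14, Timp1 and Timp2. Searched on both strands, the AP-1 letters occurred in 1 of the 6, at position -46 of Mmp3, and in 7.81% of all 32851 promoters of the same length. The letters TTCNNNGAA, a STAT site, occurred in none of the 6 and in 8.30% of all promoters. A match describes letters, not a bound site.

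Timp3 and Adamts1 stood at the head of the 9 genes in each group. Per length, as mean RPKM (CPM per kilobase of exon), Adamts1 reached 347 in marked, 203 in unmarked and 127 in pregnancy cells. Timp3 reached 229, 294 and 137, so the order of this pair was not the same in each group. Mmp2 (94.7, 92.3 and 90.5), Timp2 (97.9, 53.9 and 69.3) and Mmp14 (29.2, 113 and 66.9) followed. Plat had 62.3, 17.5 and 5.04 RPKM. Timp1, Adamts5 and Mmp3 stayed under 10 mean RPKM in each group. Cells varied by more than these means differ, and the order of Mmp2, Timp2 and Mmp14 changed between groups.

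**Figure D1:**
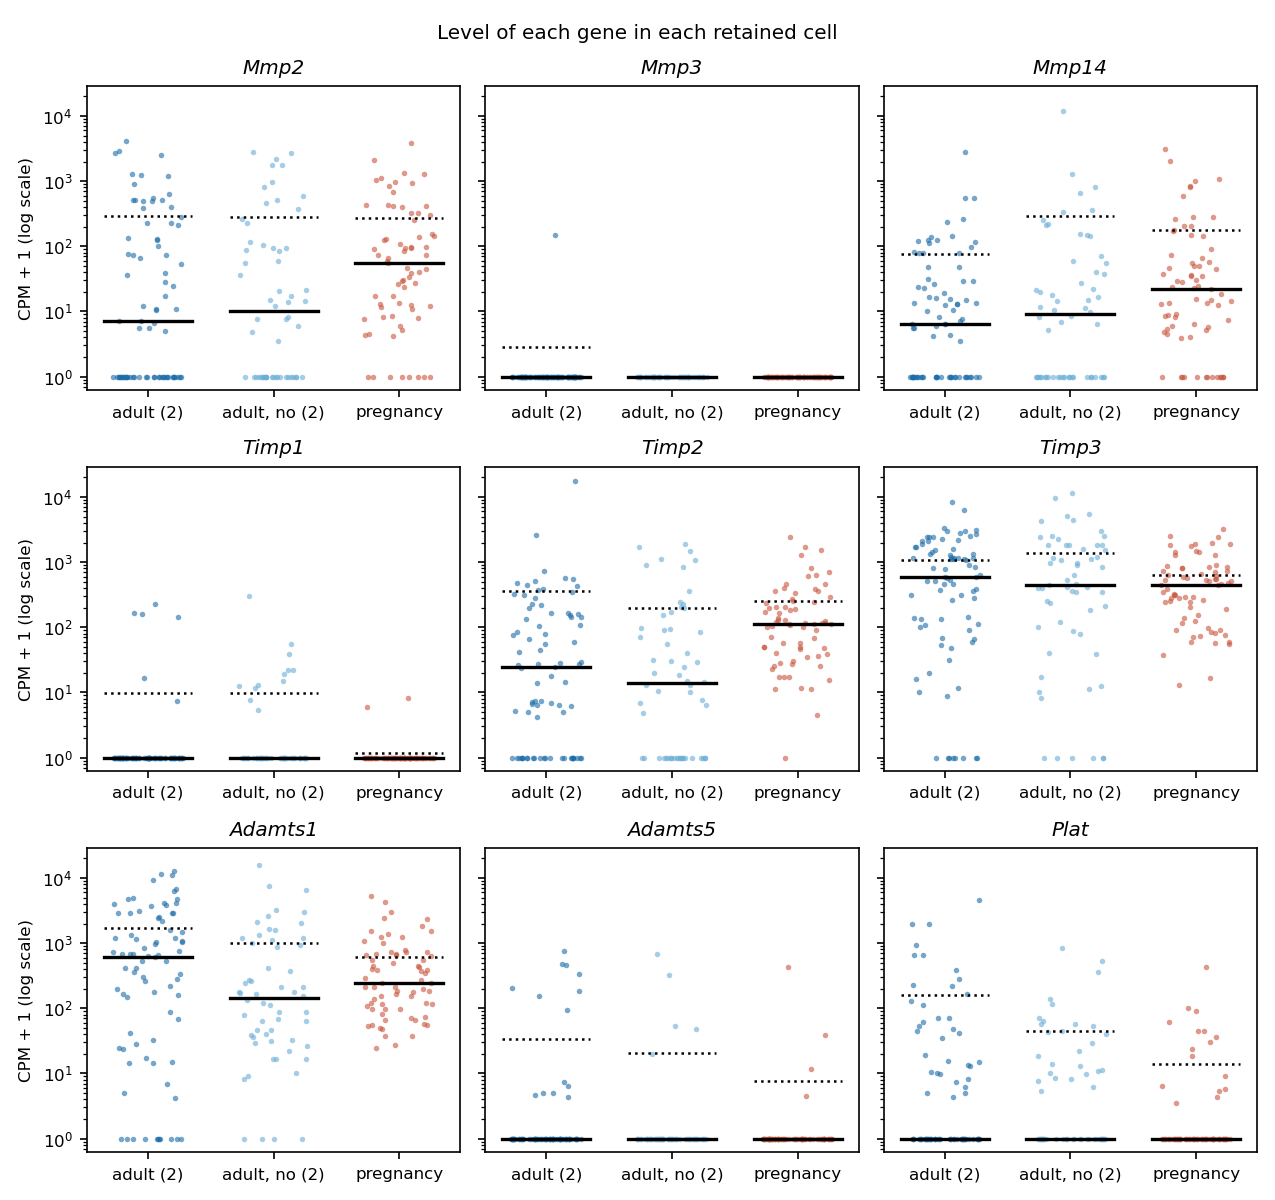
Level of each gene (CPM plus 1, log axis) in 81 marked adult, 58 unmarked adult and 71 pregnancy cells. Each point is 1 cell, solid lines are medians and dotted lines means. Timp2 has a median of 112.5 CPM in pregnancy against 23.9 and 12.8 in the adult sets, while its means of 355 (marked), 195 (unmarked) and 251 CPM (pregnancy) do not follow that order.

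Adamts1 ranged from 0 to 12987 CPM (median 613) in marked, from 0 to 15567 (median 143) in unmarked and from 23.8 to 5361 (median 246) in pregnancy cells. The groups overlapped widely, and the pregnancy median lay between those of the adult sets. Adult cells held both ends, since 15 of 139 adult cells were at 0 and no pregnancy cell was. The mean was 1694 CPM in marked, 990.2 in unmarked and 620.2 in pregnancy cells. Pregnancy over adult, as the log2 of the ratio of means after 10 CPM were added to each, came to -1.16, with -1.44 over marked and -0.67 over unmarked cells. This log2 ratio understates differences of low genes. When log2 values were averaged over cells instead, the ratio turned to 0.16, with -0.22 over marked and 0.69 over unmarked cells. Adamts1 was found in each of 71 pregnancy cells with 1 read or more after every cell was thinned at random to 50000 reads (100%, interval 94.9 to 100%), against 84.0% of marked (74.1 to 91.2%) and 82.8% of unmarked cells (70.6 to 91.4%). Before thinning these shares stood at 100%, 86.4% and 93.1%. At 500 CPM the order of pregnancy and marked cells turned, to 33.8% in pregnancy against 53.1% in marked cells, with 29.3% in unmarked cells.

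Timp3, by contrast with Adamts1, had its highest mean in unmarked cells. It ranged from 0 to 8277 CPM (median 584) in marked, from 0 to 11523 (median 452) in unmarked and from 11.9 to 3208 (median 447) in pregnancy cells. The medians of the groups were close and the ranges overlapped, with 14 adult cells and no pregnancy cell at 0. Its mean was 1070.0, 1377 and 639.9 CPM, a log2 ratio of -0.89 for pregnancy over adult, with -0.73 over marked and -1.09 over unmarked cells, and 0.00 over adult when log2 values were averaged. With 1 read after thinning it was found in 85.2% of marked, 84.5% of unmarked and 97.2% of pregnancy cells (90.2 to 99.7%), and the intervals overlapped.

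Timp2, the inhibitor that also bridges Mmp14 and Mmp2, showed the largest difference in the share of cells. It ranged from 0 to 17694 CPM (median 23.9) in marked, from 0 to 1894 (median 12.8) in unmarked and from 0 to 2465 (median 112.5) in pregnancy cells. Only 1 of 71 pregnancy cells lacked a read, against 24 of 81 marked and 21 of 58 unmarked cells. At 100 CPM it was detected in 41 of 71 pregnancy cells (57.7%, interval 45.4 to 69.4%), 27 of 81 marked cells (33.3%, 23.2 to 44.7%) and 14 of 58 unmarked cells (24.1%, 13.9 to 37.2%). These intervals did not meet, and after thinning the shares were 93.0% (84.3 to 97.7%), 56.8% (45.3 to 67.8%) and 51.7% (38.2 to 65.0%). At least 100000 reads and 1500 genes per cell left 69 pregnancy, 71 marked and 29 unmarked cells. The shares at 100 CPM were then almost the same, at 58.0%, 33.8% and 24.1%, but the pregnancy interval no longer lay above both adult intervals. Mean levels did not follow this order, with 355 CPM in marked, 195 in unmarked and 251 in pregnancy cells and a log2 ratio of -0.19. Marked cell 28 alone held 61.6% of the marked sum, and without it the marked mean was 138 CPM. Leaving out cell 28, the highest of all adult cells, and the highest pregnancy cell turned the ratio to 0.41. As a mean of log2 values it was 1.40.

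Mmp2, the gelatinase, and its activator Mmp14 were found in fewer cells. Mmp2 ranged from 0 to 4084 CPM (median 6.01) in marked, from 0 to 2838 (median 9.00) in unmarked and from 0 to 3791 (median 54.0) in pregnancy cells. Its means of 288, 281 and 275 CPM were almost equal, with a log2 ratio of -0.05. This ratio turned to 0.78 as a mean of log2 values, 0.10 with TMMwsp scaling (a scaling to genes that vary little) and 0.33 in cells with basal genes and no other lineage. Cells differed, since 36 of 81 marked, 23 of 58 unmarked and 8 of 71 pregnancy cells had no Mmp2 read. After thinning it was detected in 71.8% of pregnancy cells (59.9 to 81.9%), 48.1% of marked (36.9 to 59.5%) and 51.7% of unmarked cells (38.2 to 65.0%), and the last interval overlapped that of pregnancy.

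Mmp14 ranged from 0 to 2798 CPM (median 5.45) in marked, from 0 to 11954 (median 8.18) in unmarked and from 0 to 3103 (median 21.3) in pregnancy cells. The means were 75.9, 293 and 174 CPM, and the unmarked mean rested on cell 120. That cell held 70.2% of the unmarked sum, had 79.5% mitochondrial reads and 54041 assigned reads, and without it the unmarked mean was 88.8 CPM. Marked cell 55 held 45.5% of the marked sum, and without it the marked mean was 41.9 CPM. Pregnancy cell 36, with 51.8% mitochondrial reads, held 25.2% of the pregnancy sum, and without it the mean was 132 CPM. The log2 ratio for pregnancy over adult was 0.06, with 1.10 over marked and -0.72 over unmarked cells. This ratio over adult was 0.64 without cell 120, the highest of all adult cells, and pregnancy cell 36. It was 1.01 in cells with basal genes and no other lineage. After thinning Mmp14 was found in 60.6% of pregnancy (48.3 to 72.0%), 35.8% of marked (25.4 to 47.2%) and 51.7% of unmarked cells (38.2 to 65.0%), so only the marked set lay apart from pregnancy. All of Mmp2, Mmp14 and Timp2, the known activation complex, reached 100 CPM together in 2 marked, 2 unmarked and 2 pregnancy cells.

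Plat differed in the other direction. It ranged from 0 to 4540 CPM in marked, from 0 to 842 in unmarked and from 0 to 437 in pregnancy cells. Its median was 0 in each group. At least 1 read was seen in 35 of 81 marked, 27 of 58 unmarked and 16 of 71 pregnancy cells, the latter with the most assigned reads. The mean was 158 CPM in marked, 44.2 in unmarked and 12.8 in pregnancy cells, from 2452 (2356 to 2551), 228 (199 to 260) and 186 (160 to 215) reads. Its log2 ratio for pregnancy over adult was -2.40, with -2.88 over marked and -1.25 over unmarked cells. Marked cell 41 held 35.5% of the marked sum, unmarked cell 150 held 32.8% of the unmarked sum and pregnancy cell 44 held 48.2% of the pregnancy sum. Without cell 41, the highest of all adult cells, and pregnancy cell 44 the ratio was still -2.40. After thinning Plat was found in 14.1% of pregnancy cells (6.97 to 24.4%), 34.6% of marked (24.3 to 46.0%) and 31.0% of unmarked cells (19.5 to 44.5%), with intervals that overlap.

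A gene was called when its log2 ratios over marked and over unmarked cells had 1 sign and both reached 1 in size, among the 5197 genes that averaged 50 CPM or more in any group. Of all these genes 8.81% were called higher and 5.95% lower in pregnancy. Of the 9 genes, 6 entered, 0 were called higher and 1, Plat, was called lower. Plat entered only through the marked set, whose mean alone exceeds 50 CPM, and therefore had to differ, so its call supports nothing beyond its values. The ratio over unmarked cells came to -0.99 with pooled reads, -0.95 with TMMwsp scaling and -0.97 with scaling to all reads, and each of these ended the call. Between the adult sets, where 17.5% of genes were called higher and 16.4% lower in unmarked cells, Mmp14 was higher (log2 ratio 1.82) and Plat lower (-1.63). Since Plat entered through marked cells alone, this call of Plat is a description only as well. The Mmp14 call was lost without the highest cell of each group, at 0.93.

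**Figure D2:**
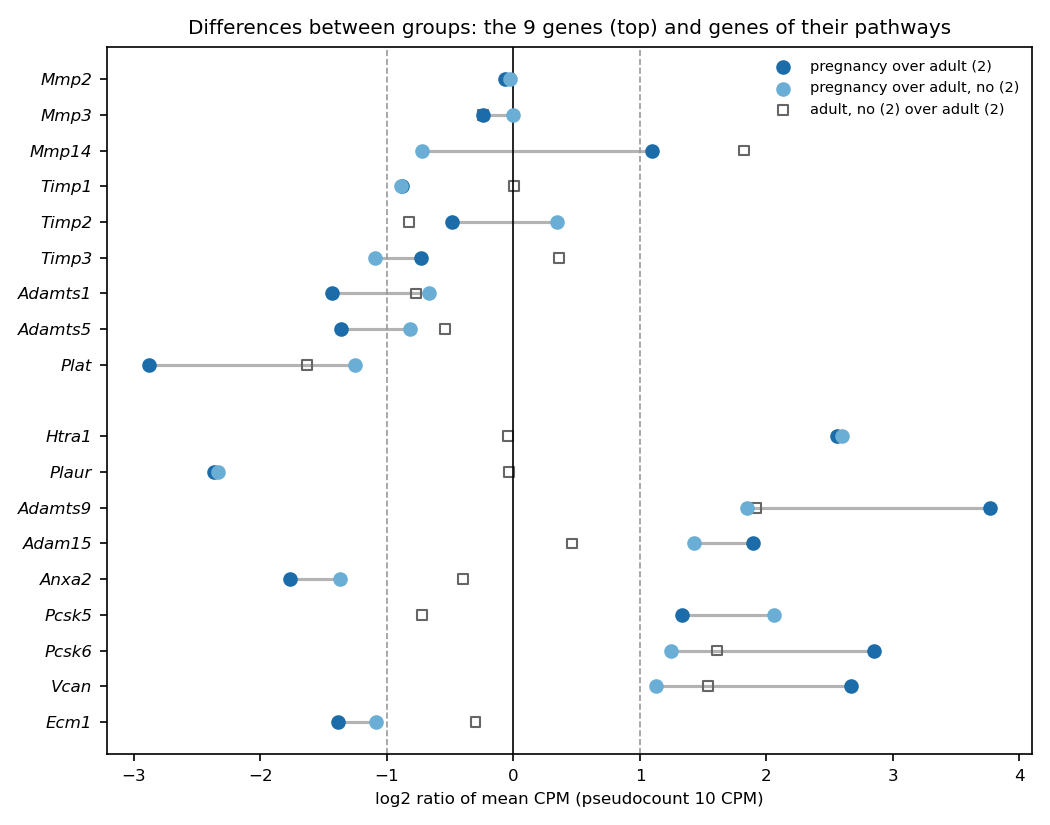
Log2 ratios of mean CPM (pseudocount 10 CPM) for the 9 genes, top, and 9 genes of their pathways, bottom. Filled points are pregnancy over marked (dark) and over unmarked adult cells (light), open squares are unmarked over marked cells, and dashed lines mark a size of 1. Plat lies left of the lower dashed line at -2.88 and -1.25, and Htra1 lies right of the upper one at 2.56 and 2.60.

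By the share of cells with 1 read after thinning, the interval of pregnancy lay above both adult intervals for 15.4% of the 5197 genes and below both for 0.5%. Timp2 and Adamts1 were above, 2 of the 6 that entered, and none was below. Detection in more pregnancy cells was therefore common among all genes, whose median share was 29.6% in marked, 29.3% in unmarked and 43.7% in pregnancy cells. At 10 CPM the intervals of Mmp2, Timp2 and Timp3 lay apart, at 100 CPM that of Timp2, and at 500 CPM none did. The share of all genes was computed after thinning only, so the results at 10, 100 and 500 CPM are a description only. Retained cells had a median of 3020 detected genes in marked, 2782 in unmarked and 4459 in pregnancy cells.

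**Figure D3:**
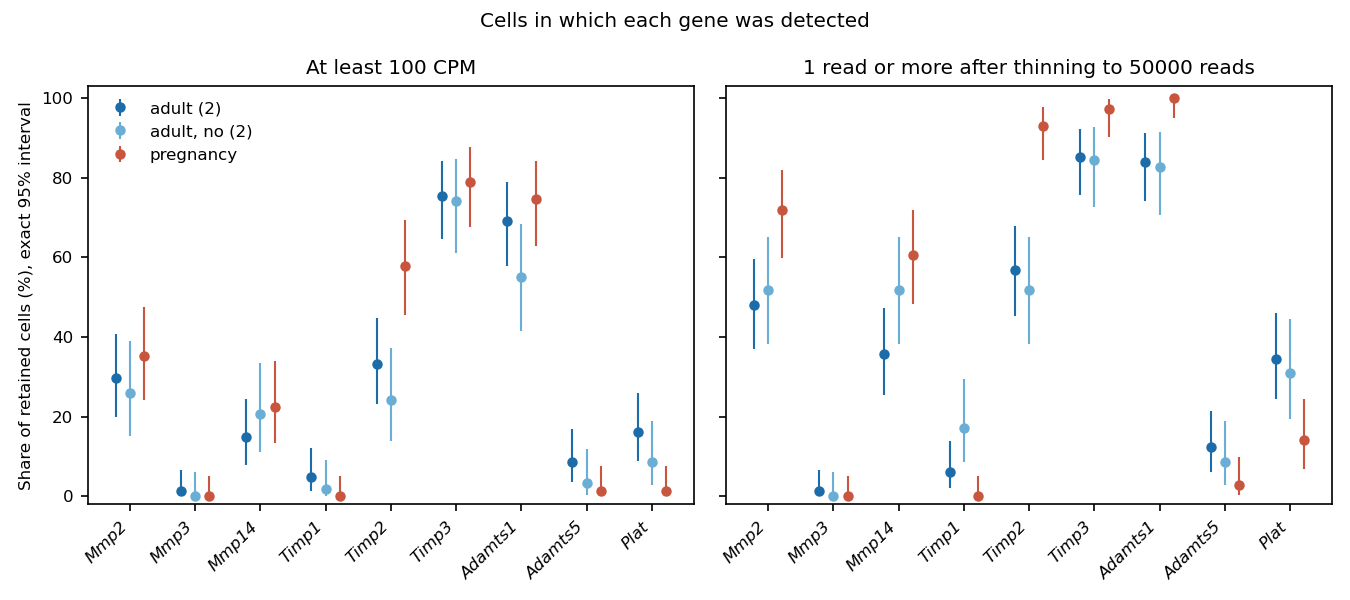
Share of retained cells in which each gene was detected, at 100 CPM or more (left) and with 1 read or more after thinning to 50000 reads (right), with exact 95% intervals. Timp2 reaches 57.7% of pregnancy cells at 100 CPM and 93.0% after thinning, above both adult sets in each panel.

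The unequal means and shares came with unequal concentration. The highest 10% of cells held 83.6% of the Timp2 sum in marked, 72.3% in unmarked and 54.8% in pregnancy cells. For Adamts1 it held 52.8%, 66.8% and 50.7%, and for Timp3 40.2%, 50.5% and 38.6%. Over all 5197 genes the median of this share was 82.8%, 85.4% and 74.3%, so a more even spread in pregnancy was again not particular to these genes. Timp3 was the most evenly spread of the 9 in each group.

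**Figure D4:**
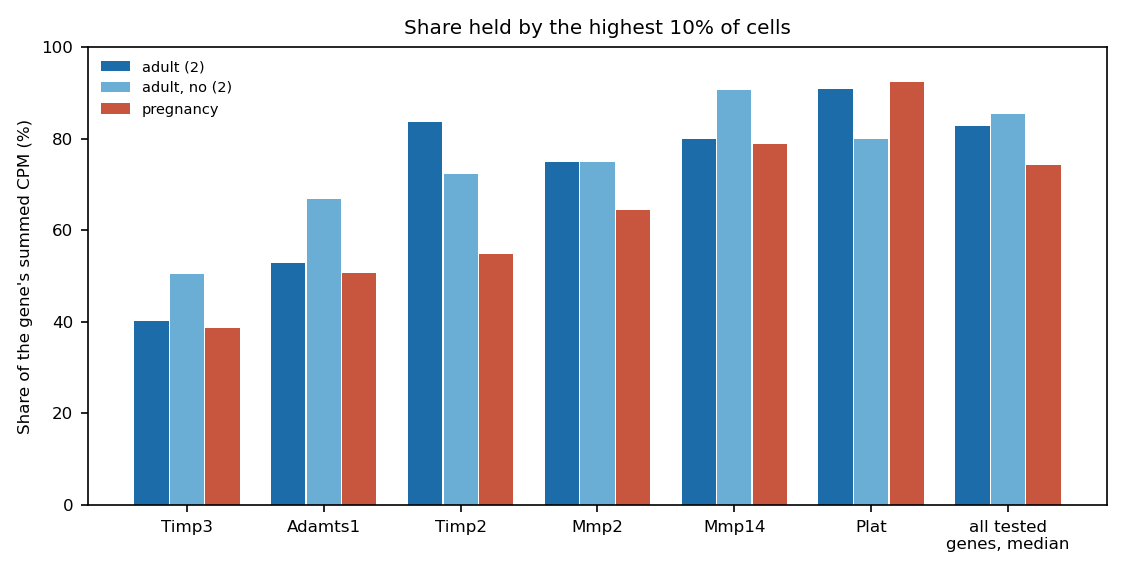
Share of a gene's summed CPM held by the highest 10% of cells in each group (9 of 81 marked, 6 of 58 unmarked and 8 of 71 pregnancy cells), for the 6 genes with enough signal and for the median of all tested genes. Timp2 stands at 83.6% in marked and 54.8% in pregnancy cells, and Timp3 is lowest at 38.6% to 50.5%.

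The other 3 genes were sparse. Adamts5, the second aggrecan- and versican-cutting protease, had reads in 14 of 81 marked, 5 of 58 unmarked and 4 of 71 pregnancy cells, with highest cells at 753, 690.3 and 427 CPM. Mean levels were 33.0, 19.6 and 6.76 CPM. Markers of other cell types stood beside it. The highest marked cell, 104, carried 3 of 8 pericyte genes and 5 core basal genes. Unmarked cell 157 carried 6 of 8 fibroblast genes and no core basal gene. Pregnancy cell 62 carried 5 fibroblast and 10 core basal genes, with 54.3% mitochondrial reads. Restricted to cells with at least 6 core basal genes and fewer than 3 genes of any other lineage list, the Adamts5 mean was 18.5, 1.59 and 0.810 CPM. Adamts5 reached 100 CPM in 5.71% of 70 such marked cells and in no such unmarked or pregnancy cell. Timp1, an inhibitor that inflammation and growth signals are known to raise, had reads in 6 marked, 12 unmarked and 2 pregnancy cells. Its sums were 137 (115 to 162), 71 (55 to 90) and 3 reads (1 to 9), and its highest pregnancy cell was at 7.09 CPM. Mmp3 had 26 reads (17 to 38), all in marked cell 35 at 149 CPM, and 0 of 58 unmarked and 0 of 71 pregnancy cells, which allows shares of up to 5.17% and 4.23% by the limit of 3 counts, with exact upper bounds of 6.16% and 5.06%.

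Cells with markers of other lineages were present in each group. At least 3 pan-luminal genes, such as Krt8 and Krt18, were detected in 5 of 81 marked, 4 of 58 unmarked and 3 of 71 pregnancy cells. At least 3 immune genes were detected in 1 marked cell, cell 19, with a summed level of 50972 CPM, and at least 3 endothelial genes in 1 unmarked cell, cell 135. At least 3 fibroblast genes were detected in 0 of 81 marked, 3 of 58 unmarked and 3 of 71 pregnancy cells, and at least 3 pericyte genes in 2, 0 and 0 cells. The summed fibroblast genes ranged from 0 to 3262 CPM in marked, 0 to 38176 in unmarked and 55.2 to 5782 in pregnancy cells. In pregnancy this sum was carried by Dcn, a matrix proteoglycan on the fibroblast list, with a median of 555 CPM and 93.0% of cells at 100 CPM, whereas its median was 0 in marked and 21.7 in unmarked cells. Lum and Dpt, also fibroblast genes, were at 0 in all marked cells. The highest Mmp2 cell of the marked set, 102, carried 5 pericyte and 8 core basal genes, and that of the unmarked set was cell 157. The part of such cells or of free RNA in the levels was not tested. In cells with basal genes and no other lineage, where free RNA would remain, the Mmp2 means were 232, 236 and 296 CPM, and those of Timp3 were 1012, 1349 and 621. In those cells Plat had 171, 40.3 and 6.30 CPM, and the Mmp14 mean of unmarked cells was 92.8 instead of 293.

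Proteases and inhibitors were then set against each other in each cell, as summed RPKM of the 6 proteases and of the 3 inhibitors. Protease sums had medians of 293 (range 0 to 2683) in marked, 124 (0 to 4708) in unmarked and 186 (7.58 to 1417) in pregnancy cells. Inhibitor sums had medians of 224 (0 to 6218), 207 (0 to 2462) and 137 (11.7 to 856). The inhibitors exceeded the proteases in 31 of 81 marked cells (38.3%, interval 27.7 to 49.7%), 35 of 58 unmarked cells (60.3%, 46.6 to 73.0%) and 30 of 71 pregnancy cells (42.3%, 30.6 to 54.6%). The pregnancy share lay between the adult sets and overlapped both, so a difference between stages was not detectable. A median of 2 marked, 2 unmarked and 3 pregnancy genes of the 9 reached 100 CPM in a cell. Timp3 and Adamts1 reached it together in 45 of 81, 30 of 58 and 41 of 71 cells.

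Levels of the 5 genes found in most cells were weakly related between cells. Over the 10 pairs of Mmp2, Mmp14, Timp2, Timp3 and Adamts1, Spearman's rho ran from -0.05 to 0.26 over 81 marked, from -0.07 to 0.38 over 58 unmarked and from -0.12 to 0.20 over 71 pregnancy cells. Only 2 of the 10 pairs had 1 sign in every group, both with Mmp2. Among the sparser genes, Plat reached rho of 0.52 with Adamts1 and 0.40 with Adamts5 in unmarked cells, against 0.05 and -0.02 in marked cells, and 0.39 with Mmp14 in pregnancy. Cells share capture runs and differ in depth, and rho of 6 genes with assigned reads lay between -0.28 and 0.15. Timp3 and Adamts1 had positive rho with the summed immediate early genes, which respond to dissociation, at 0.14, 0.50 and 0.18 for Timp3 and 0.10, 0.38 and 0.16 for Adamts1 (marked, unmarked, pregnancy). The part of dissociation in their levels was not tested.

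Among 2100 genes of sufficient level, those most like each member by the mean rho over the 3 groups were Il6st for Adamts1 (0.36), Igfbp5 for Mmp2 (0.34), Ubr1 for Mmp14 (0.33), Elavl1 for Timp2 (0.28) and Nr4a1 for Timp3 (0.28). The next were Mdn1 and Ifrd1 for Adamts1, Mycbp2 and Trf for Mmp2, Gpc4 and Kif5b for Mmp14, Anxa4 and Pja1 for Timp2, and Eln and Trpm7 for Timp3. These values are low, and the medians over all candidates lay between 0.03 and 0.09.

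Of 79 other genes of these pathways, 25 averaged 50 CPM or more in any group, and of these 7 were called higher and 4 lower in pregnancy, beside 8.81% and 5.95% of all genes. Adam10, Adam15, Pcsk5 and Pcsk6 passed the level of 50 CPM in pregnancy alone, and Plaur, Ecm1 and Adamts3 in adult cells alone, so these 7 of the 11 had to differ and these counts and those of each list are a description only. None of the 20 other metalloproteinases entered, and 17 of them stayed under 10 CPM in each group. Of 17 other ADAMTS proteases, 6 entered, with Adamts9 called higher and Adamts3 lower. Of 10 genes of the plasminogen system 4 entered, with 0 higher and 2 lower. Of 13 activating and other proteases 10 entered, with 3 higher, and of 9 ADAM sheddases 3 entered, with 2 higher. The median log2 ratio of the 25 over all adult cells was -0.33, against -0.07 for all tested genes. It was 0.31 over marked and -0.16 over unmarked cells, against 0.05 and 0.03 for all tested genes, so its sign depended on the adult set.

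Vcan, the proteoglycan versican that Adamts1 and Adamts5 cut, had a median of 730 CPM in pregnancy against 8.98 in marked and 17.6 in unmarked cells. Its mean was 1035 CPM in pregnancy, 154 in marked and 468 in unmarked cells, with log2 ratios of 2.67 and 1.13. It was found after thinning in 100% of pregnancy, 45.7% of marked and 51.7% of unmarked cells. Adamts9, another versican-cutting protease, had means of 9.62 (marked), 64.1 (unmarked) and 257 CPM (pregnancy). It was found in 90.1% of pregnancy against 16.0% and 29.3% of adult cells. Htra1, a secreted serine protease, rose from 55.0 and 53.1 to 372 CPM and was found in 83.1% against 37.0% and 43.1%. These 3 genes had pregnancy intervals above both adult intervals after thinning, as had 15.4% of all tested genes. The proprotein convertases Pcsk6 (6.38 and 39.9 to 108 CPM) and Pcsk5 (30.2 and 14.4 to 91.4 CPM), which activate precursors, had higher values too, but entered through pregnancy alone. Pcsk6 was found after thinning in 60.6% of pregnancy against 4.94% and 10.3% of adult cells, and its pregnancy interval also lay above both. Adam15, a membrane sheddase, was called higher at 76.5 against 13.3 and 22.1 CPM, but pregnancy cell 28 held 79.3% of its sum and without it the mean was 16.1 CPM. Between the adult sets, unmarked over marked, the log2 ratio was 1.54 for Vcan, 1.92 for Adamts9 and 1.61 for Pcsk6. These exceeded their ratios of pregnancy over unmarked cells, which were 1.13, 1.85 and 1.24. For Htra1 (-0.04), Adam15 (0.46) and Pcsk5 (-0.72) the difference between the adult sets was smaller in size than either pregnancy ratio.

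In the plasminogen system, Plaur, the receptor of urokinase, fell from 209.8 and 204 CPM in the adult sets to 32.5 CPM in pregnancy, and was found in 19.7% of pregnancy against 48.1% and 51.7% of adult cells. Its 2 log2 ratios were -2.37 and -2.33. After thinning, the pregnancy interval of Plaur lay below both adult intervals, as for 0.5% of all tested genes. Plaur entered through adult cells alone, so this is a description only. Anxa2, which binds plasminogen and its activator at the cell surface, fell from 1669 and 1265 to 484 CPM. Ecm1, a secreted matrix protein, fell from 65.4 and 51.2 to 18.9 CPM. Adam10, a sheddase, and Adamts3, which trims procollagen, completed the 11 calls, Adam10 with 4.62 and 19.6 to 55.7 CPM and Adamts3 with 71.3 and 204 to 23.3 CPM, each found after thinning in under 25% of cells of each group. Calls of Htra1, Plaur and Adamts9 held in 9 of 9 alternative settings, those of Anxa2, Vcan, Pcsk5 and Pcsk6 in 7, Adam15 in 5 and Ecm1 in 2.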

How the data were processed

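Single cells were captured on the Fluidigm C1. The authors used Subread 1.5.0 and mm10, per the submitters' processing notes, and deposited whole read counts per Entrez gene, assigned by featureCounts to its built-in annotation, with no normalization. Each file gives exon length, from which RPKM was computed. Symbols came from RefSeq, and 1904 of 27179 IDs without one, holding 1.66% of reads, were left out with 15 mitochondrial and 124 ribosomal protein genes. CPM is a count scaled to 1000000 assigned reads of its cell. No doublet caller was run, and no 2 cells held identical counts. Thinning drew reads without replacement. Shares have Clopper-Pearson and read sums Poisson intervals, and a share of 0 is bounded by 3 counts. The labels name no animals, so no p-value was computed.

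The 9 genes, gene lists, rules and alternatives were chosen with earlier results of these data known. Besides the 9 genes, the text names pathway genes that were called, averaged 50 CPM or more and, after thinning, had a read in 25% or more of cells in the higher stage, at most 10 of them, and for each gene found in 25% of cells of every group the 3 genes most like it. Adam10 and Adamts3 were named after their values were seen. Python 3.11.15, numpy 2.4.6, scipy 1.17.1, pandas 2.3.3 and edgeR 4.0.16 (scaling factors only) were used, and the ratio code was tested on simulated data. Protein sequences were not analysed here. One gene of the pathway lists is not reported here and was left out of their counts.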

Additional observations from a re-analysis of the deposited data

Results flagged for a closer look

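Cells that did not pass the filter, which no comparison above uses, held reads of the 9 genes as well. Their share of assigned reads was 0.386% in 31 left-out marked cells (exact interval 0.368 to 0.404%), against 0.336% in retained ones. In 67 left-out unmarked cells it was 0.704% (0.684 to 0.723%), against 0.272%. In 4 left-out pregnancy cells it was 0.263% (0.231 to 0.298%), against 0.202%. Intervals cover counting error only, and the cause was not tested.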

How the results depend on the processing

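Under 9 alternatives the count of the 9 genes called lower in pregnancy stayed at 1 in 4 and was 0 with a pseudocount of 100 CPM, means of log2 values, pooled reads, TMMwsp factors and scaling to all reads. Of all tested genes 0.77%, 0.62%, 6.10%, 3.83% and 7.47% were called lower where it was 0, in that order. Where it stayed at 1, the share of all genes ran from 4.75% to 8.54%. The count called higher was 1 with means of log2 values (Timp2), where 10.5% of all genes were called higher. It was otherwise 0, beside 1.29% to 15.7% of all genes. Between adult sets, the count higher in unmarked cells fell from 1 to 0 with means of log2 values, scaling to all reads, 100000 reads and 1500 genes, without the highest cells, and in cells with basal genes alone. Of all genes 0.56%, 14.2%, 20.5%, 7.78% and 16.8% were then called higher, in that order. The count lower was 1, Plat, which entered through marked cells alone, so it is a description only. This count fell to 0 with a pseudocount of 100 CPM and means of log2 values, beside 1.39% and 2.17% of all genes. It was 2 with TMMwsp factors, 100000 reads and 1500 genes, without the highest cells and in cells with basal genes alone. Of all genes 17.1%, 22.6%, 17.1% and 18.2% were then called lower, in that order. The count of detection intervals apart in pregnancy, 1 at 100 CPM, was 3 at 10 CPM, 2 after thinning, and 0 at 500 CPM and with 100000 reads and 1500 genes. A share over all genes was computed after thinning alone, with 15.4% above both adult intervals. The cause of these changes in the counts was not tested. The median log2 ratio of all tested genes moved from -0.07 to 0.23 with TMMwsp factors, -0.24 with scaling to all reads and 0.30 with means of log2 values, and higher genes made up 59.7% of all calls, then 80.4%, 44.9% and 94.4%. Relative to that median Plat stood at -2.34, then -2.75, -2.16 and -1.08. No paired analysis was possible because each group is 1 sample and cell numbers shared between groups are only names. For the same reason no replicate could be left out. Thinning to 50000 reads lowered the share of marked cells with Mmp14 from 60.5% to 35.8%.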
